A study of Homo sapiens with 12 samples.

Results

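SNU601 is a gastric cancer cell line, and the values described here compare its CD133+ cells with its CD133- cells, each measured on 2 of the 12 arrays of a series of 3 cell lines, so that 4 arrays are concerned. The lines (KATO-III, SNU216 and SNU601) were cultured without any treatment in RPMI1640 with 10% calf serum. Cells were stained with a phycoerythrin-coupled antibody to the AC133 epitope of CD133, gates were set with an isotype control, and a MoFlo XDP cytometer collected the brightest 10% as CD133+ and the dimmest 6% as CD133-, so cells of intermediate staining belong to neither fraction. Total RNA of each fraction was amplified, biotinylated and hybridized to Illumina Human HT-12 v3 BeadChips. The members were chosen by their labels (the line SNU601, both fractions), and genes were described where their intensity reached 100 on at least 2 of the 4 arrays, which held for 11693 of 34595 genes with a value. Such genes are called clear below. Whether the 2 arrays of a fraction come from separate sorts or cultures is not stated, so the p-values measure only the spread between arrays, which may be technical. These are bulk samples, in which fewer cells of a kind and less RNA per cell cannot be told apart.

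CD133, encoded by PROM1, is a glycoprotein with 5 transmembrane passes that sits on plasma membrane protrusions, and it is widely used to sort cells with stem-like properties from normal tissues and from tumours. In the stomach and gut, epithelial cells leave the dividing compartment as they take on secretory or absorptive functions, and gastric cancers often carry both gastric markers, such as the surface mucin MUC5AC and the trefoil factor TFF1, and intestinal ones, such as CDX2 and CDH17. Genes of cell division and genes of these specialized functions were among the lists that were counted. The lists were chosen with earlier results of these data known.

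The deposited intensities are linear and have a background subtracted, and values under a floor of 32.7 were set to the floor before log2 was taken. Between 11491 and 11530 genes reached 100 on each of the 4 arrays. Across the clear genes the 2 arrays of a fraction correlated at 0.995 (CD133+) and 0.994 (CD133-), and arrays of different fractions at 0.983, where genes are not independent replicates. All 16 genes listed as gastric epithelial markers were clear in SNU601, among them KRT8, KRT18, KRT19 and TACSTD1 (EPCAM). The list is not confined to the stomach, since VIL1 also stands among the gut lineage and enterocyte genes. Of 20 blood cell markers, 2 were clear (LYZ and CD68, which are not confined to blood cells), and 11 lay at or below the floor on all 4 arrays. CD68 was called lower in CD133+ cells (log2 change -0.46), a call lost without CD133+ replicate 2 or either CD133- array. Summed over all 20, clear or not, the intensity was 10391 to 10586 in CD133+ and 11291 to 11935 in CD133- cells. Of 16 fibroblast and endothelial markers, 2 were clear (COL1A1 and ACTA2, neither of them called) and the other 14 lay at or below the floor on all 4 arrays.

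PROM1 itself was measured at 4877 and 4677 on the CD133+ arrays and at 1315 and 1324 on the CD133- arrays. Both CD133+ arrays were higher than both CD133- arrays, so the transcript followed the labels, and the CD133- fraction still carried PROM1 transcript at a clear level. The difference was 1.86 on the log2 scale (SE 0.06, 3.62-fold, adjusted p = 5.65e-06 by limma). PROM2, a paralog of PROM1, had values of 2595 and 2816 in CD133+ and of 3243 and 3343 in CD133- cells, a log2 change of -0.28 (adjusted p = 0.0304). That call was lost without CD133+ replicate 1 (-0.23, adjusted p = 0.162), without CD133- replicate 1 (-0.31, 0.0874) and without CD133- replicate 2 (-0.26, 0.136).

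At an adjusted p of 0.05 over all tested genes, the CD133+ cells had a higher level of 1536 clear genes (13.1%) and a lower level of 1381 (11.8%). Most of these differences were small. The median log2 change was 0.43 among the higher and -0.41 among the lower genes, and 2182 of the 2917 called genes (74.8%) differed by less than 1.5-fold. A log2 change of at least 1 was passed by 79 higher (0.676%) and 64 lower genes (0.547%). Of the called genes, 78 higher and 61 lower ones were clear in 1 fraction only. For comparison, the median SD between the arrays of a fraction was 0.07 on the log2 scale. With any 1 of the 4 arrays left out, the counts were 984 to 1019 higher and 823 to 898 lower genes, and those with 1 array in a fraction assume that it varies like the arrays of the other populations.

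**Figure D1:**
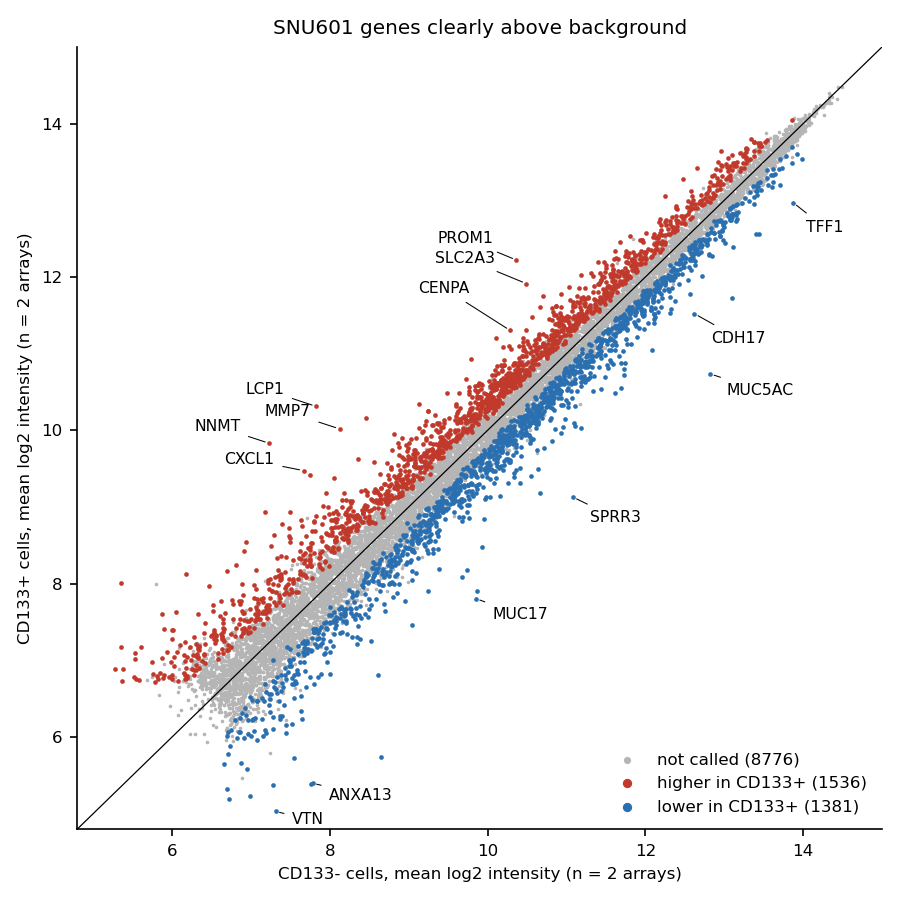
Mean log2 intensity of each clear gene in CD133- (x axis) and CD133+ cells (y axis) of SNU601, 2 arrays each, with genes called higher in CD133+ cells in red, called lower in blue and not called in grey; the line marks equal levels. Most genes lie close to the line, with PROM1, NNMT, LCP1 and MMP7 well above it and MUC5AC, MUC17, ANXA13 and VTN well below.

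Among the genes with the largest increases in CD133+ cells, NNMT, which methylates nicotinamide, was measured at 925 and 898 in CD133+ and at 140 and 161 in CD133- cells. The fractions did not overlap, and the change was 2.60 on the log2 scale (SE 0.34, 6.07-fold, adjusted p = 0.00155). LCP1, the actin-bundling protein L-plastin, had 1259 and 1286 in CD133+ against 207 and 250 in CD133- cells. All CD133+ values lay far above the CD133- values, with a log2 change of 2.49 (SE 0.10, 5.60-fold, adjusted p = 1.43e-05). MMP7, the secreted protease matrilysin, which was named after its values were seen, had 999 and 1078 against 270 and 288, again without overlap (log2 change 1.89, SE 0.12, adjusted p = 8.4e-05). SLC2A3, the glucose transporter GLUT3, stood at 3864 and 3854 against 1424 and 1458, a 2.68-fold difference between fractions whose own arrays were close (adjusted p = 0.000717).

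Other genes with large increases had varied functions. CADM1, an immunoglobulin-like adhesion molecule, had 659 and 706 in CD133+ and 200 and 231 in CD133- cells, a log2 change of 1.67 (SE 0.12, adjusted p = 0.000139). TMEM158, a membrane protein first described as a target of RAS, was at 1041 and 1256 against 341 and 365 (log2 change 1.70, adjusted p = 5.5e-05). MIA, a small secreted protein known from melanoma, was at 547 and 439 against 136 and 155 (1.75, adjusted p = 0.00036). In each of these the lowest CD133+ array was above the highest CD133- array. Among secreted signals, the growth factor FGF20 was clear only in CD133+ cells, at 244 and 256 against 81.4 and 96.1 (2.83-fold). Among transcription factors, MEF2C (142 and 133 against 42.6 and 50.0) and the homeodomain factor OTX1 (153 and 186 against 61.8 and 66.2) were likewise clear only in CD133+ cells, with log2 changes of 1.57 and 1.40.

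CXCL1, a neutrophil-attracting chemokine, varied more between arrays. It was measured at 769 and 659 in CD133+ cells, and at 135 and 307 in CD133- cells. The fractions did not overlap, but the CD133- arrays were more than 2-fold apart, and the log2 change was 1.81 with an SE of 0.42 (adjusted p = 0.0193). The call was lost without CD133+ replicate 1 (1.69, adjusted p = 0.104), without CD133+ replicate 2 (1.92, 0.072) and without CD133- replicate 1 (1.21, 0.112).

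Among the genes with the largest decreases in CD133+ cells, MUC5AC, the gel-forming mucin of the gastric surface, fell from 7876 and 6653 in CD133- cells to 1648 and 1766 in CD133+ cells. The ranges were far apart, and the log2 change was -2.08 (SE 0.25, 4.24-fold, adjusted p = 0.00107). MUC17, a membrane mucin of the intestinal brush border, was at 244 and 205 in CD133+ against 936 and 914 in CD133- cells (log2 change -2.05, SE 0.09, adjusted p = 1.84e-05). TM4SF4, a membrane protein with 4 passes found in gut and liver, was at 248 and 232 against 907 and 966 (-1.96, adjusted p = 1.43e-05). ANXA13, an annexin of intestinal epithelium, was clear only in CD133- cells, at 213 and 227 against 38.3 and 46.5 (-2.38, SE 0.13, 5.22-fold). None of these genes had a CD133+ value near its CD133- values.

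VTN, the adhesive plasma protein vitronectin, was below the floor on both CD133+ arrays and at 153 and 165 on the CD133- arrays, so it was at least 4.86-fold lower in CD133+ cells. It lay at or below the floor on all arrays of the other lines too, and passed the filters only through the CD133- arrays of SNU601, so no p is given. ATP10B, a putative lipid flippase, was clear only in CD133- cells, at 187 and 253 (log2 change -2.37). It was below the floor on 1 CD133+ array and at 54.0 on the other. The precursors of the cornified envelope SPRR3 and SPRR1B were both lower. SPRR3 was at 533 and 588 in CD133+ and at 2086 and 2251 in CD133- cells, and SPRR1B at 277 and 268 against 875 and 764, with log2 changes of -1.95 and -1.59 (adjusted p = 5.52e-05 and 0.00101). PSCA, a lipid-anchored surface protein of gastric and other epithelia, was at 335 and 252 against 875 and 836 (-1.56, adjusted p = 0.000442). AADAC, an esterase of liver and gut, was at 588 and 577 against 1681 and 1566 (-1.48, adjusted p = 0.000421), and DHRS9, a retinol dehydrogenase, at 112 and 111 against 370 and 411 (-1.80, adjusted p = 8.4e-05). The brush border myosin MYO1A (-1.37) and the intestinal surface antigen GPA33 (-1.30) were clear only in CD133- cells.

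**Figure D2:**
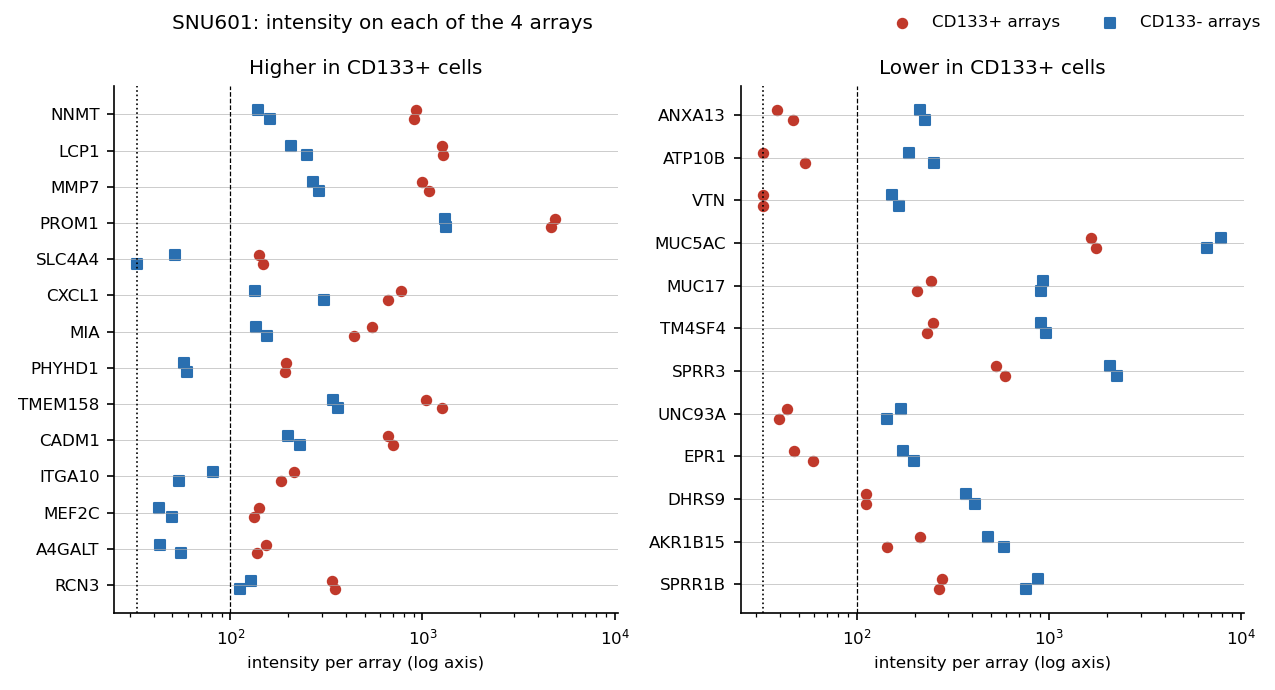
Intensity on each of the 4 SNU601 arrays (log axis) for genes with the largest changes, with CD133+ arrays as red circles and CD133- arrays as blue squares; the dotted line is the floor of 32.7, where lower values are drawn, and the dashed line the level of 100. The arrays of a fraction sit close together for most genes, and the widest pair in the left panel is the CD133- pair of CXCL1 at 135 and 307.

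Genes of cell division formed the group in which the largest number of members differed one way. Of 54 clear genes of mitosis and G2/M, 42 (77.8%) were higher in CD133+ cells, 1 was lower and 11 were not called, beside 13.1% and 11.8% of all clear genes. The median log2 change of the list was 0.42, beside -0.01 over all clear genes. The mean log2 intensity of the list was 10.95 on both CD133+ arrays and 10.51 on both CD133- arrays. CENPA, the histone H3 variant of centromeres, was at 2537 and 2517 in CD133+ and at 1219 and 1281 in CD133- cells. Its fractions did not overlap (log2 change 1.02, SE 0.08, adjusted p = 0.000225). SGOL1 (SGO1), the shugoshin that protects cohesion between sister chromatids, was at 1142 and 1087 against 618 and 580, and the mitotic cyclin CCNB1 at 1035 and 1112 against 631 and 553. They were higher in CD133+ cells by 0.90 and 0.86 on the log2 scale (adjusted p = 0.000166 and 0.00119). The inner centromere protein INCENP was higher by 0.79 (adjusted p = 0.000366). CDC25B, a phosphatase that activates cyclin-dependent kinases, was the lower one, at 3179 and 3221 against 3928 and 3747 (log2 change -0.26, adjusted p = 0.0105), and its call was lost without CD133+ replicate 1 (-0.25, adjusted p = 0.0552) or CD133- replicate 1 (-0.23, 0.0646).

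Promoters of cell cycle genes are known to share a CCAAT box, which binds NF-Y, and the cell cycle genes homology region (CHR), which is bound by the DREAM and MuvB complexes that silence and later activate these genes. Of the 42 mitosis genes higher in CD133+ cells, 34 had a promoter in RefSeq on GRCh38.p14. In the 250 bases before the start, searched on both strands, the letters CCAAT (or ATTGG) stood in 27 of them (79.4%), the CHR letters TTTGAA (or TTCAAA) in 18 (52.9%) and both in 16 (47.1%). Over all 27305 promoters the shares were 33.0%, 13.6% and 4.85%, and over the promoters of clear genes 36.2%, 8.31% and 3.59%. Of the 23 promoters found for the 24 replication genes higher in CD133+ cells, described next, 9 (39.1%) held CCAAT and 0 held the CHR letters. A match is a description of the letters and not a site. No share was counted for the mitosis genes that were not called, so the shares cannot be tied to the change between fractions. The 150 bases before the start are printed for the 4 mitosis genes of largest change that hold both motifs there, to show how the motifs are spaced, with the motifs in capitals and 5′ to 3′ on the gene's strand: CENPA at chr2:26785906-26786055 (plus strand), INCENP at chr11:62123861-62124010 (plus), PLK1 at chr16:23678739-23678888 (plus) and KIF18A at chr11:28108157-28108306 (minus).
CENPA: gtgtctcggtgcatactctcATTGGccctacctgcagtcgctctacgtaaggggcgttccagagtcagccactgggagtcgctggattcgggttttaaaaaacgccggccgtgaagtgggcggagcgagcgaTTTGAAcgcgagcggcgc
INCENP: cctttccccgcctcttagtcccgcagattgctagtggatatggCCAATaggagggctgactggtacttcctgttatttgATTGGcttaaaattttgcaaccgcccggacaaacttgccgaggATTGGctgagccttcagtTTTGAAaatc
PLK1: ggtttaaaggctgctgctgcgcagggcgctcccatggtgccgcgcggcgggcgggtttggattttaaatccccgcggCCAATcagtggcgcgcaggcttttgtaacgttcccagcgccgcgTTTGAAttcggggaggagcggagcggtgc
KIF18A: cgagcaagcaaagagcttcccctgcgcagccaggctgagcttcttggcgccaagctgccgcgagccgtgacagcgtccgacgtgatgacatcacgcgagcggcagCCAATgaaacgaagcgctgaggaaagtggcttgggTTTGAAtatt
PLK1, the mitotic Polo-like kinase, and KIF18A, a kinesin that shortens spindle microtubules, were higher by 0.75 and 0.74 on the log2 scale. The CHR letters started 10 to 29 bases before the start in all 4, and a CCAAT box lay upstream of them at 28 to 130 bases.

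Of 49 clear DNA replication genes, 24 (49.0%) were higher in CD133+ cells, 0 lower and 25 not called, with a median log2 change of 0.25. An unadjusted p under 0.05 with a negative change was reached by 0 of the 49. CHAF1A, which loads histones onto new DNA, was at 547 and 544 in CD133+ and 301 and 288 in CD133- cells. It was 1.85-fold higher, without overlap (log2 change 0.89, SE 0.08, adjusted p = 0.000337). POLA2, a subunit of the primase complex, was at 2802 and 2297 against 1458 and 1424 (0.82, adjusted p = 0.000691), GINS4 of the replicative helicase was higher by 0.75 and POLE2 of polymerase epsilon by 0.67. Of 26 clear genes of G1 control, 10 (38.5%) were higher and 0 lower (median 0.19). Over all clear genes, 13.1% were higher and 11.8% lower. At an unadjusted p under 0.05, 1 was lower. The 4 with the largest changes were CCNG2, an atypical cyclin of arrested cells (0.75), the inhibitors of cyclin-dependent kinases CDKN2D (0.71) and CDKN1C (0.56), and the stress gene GADD45B (0.52). Of 28 clear histone genes, 2 were higher and 1 lower, with a median of 0.01. HIST1H2BJ (H2BC11) was higher by 1.10 and H2AFX (H2AX) by 0.66, while HIST1H4H (H4C8) was lower, at 272 and 257 against 554 and 499 (log2 change -0.99, adjusted p = 0.00146).

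**Figure D3:**
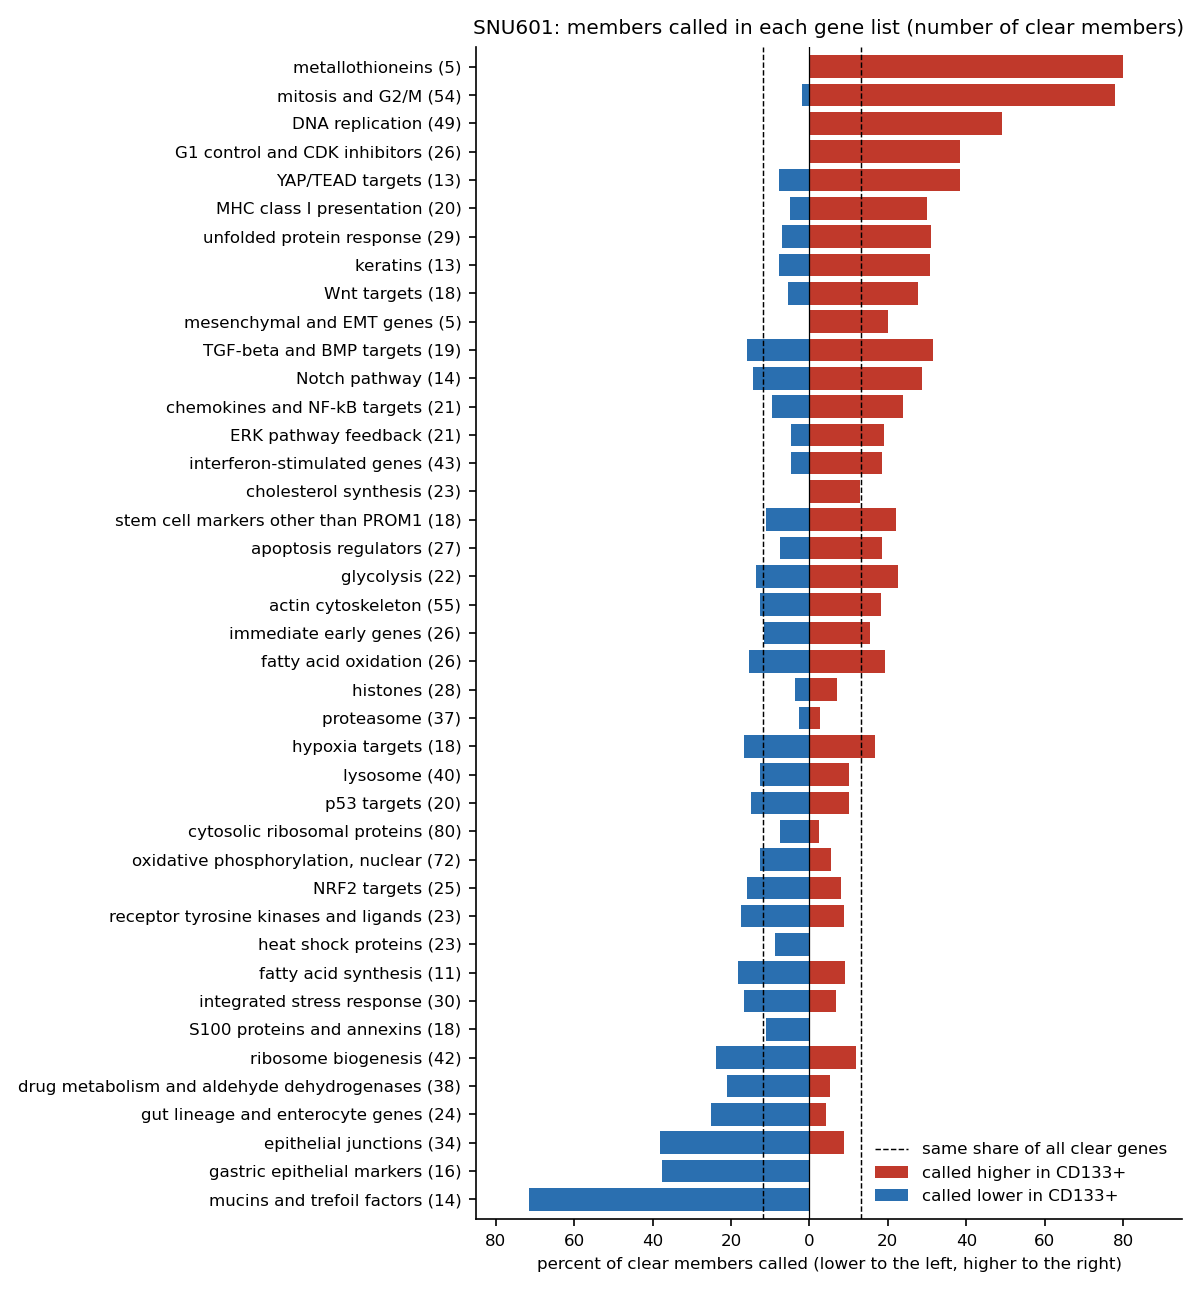
Share of the clear members of each gene list called higher (right, red) or lower (left, blue) in CD133+ cells of SNU601, for lists with at least 5 clear members, whose number is in parentheses; dashed lines mark the shares over all clear genes, 13.1% and 11.8%. Mitosis (77.8%) and the 5 metallothioneins stand at the higher end, and mucins and trefoil factors (71.4% lower) at the other.

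The list of mucins and trefoil factors holds secreted and membrane-bound mucins, trefoil peptides and other products of secretory epithelium. Of 14 clear members, 10 (71.4%) were lower in CD133+ cells, 0 were higher and 4 were not called, with a median log2 change of -0.44. Of all clear genes, 11.8% were lower and 13.1% higher. At an unadjusted p under 0.05, 11 were lower and 1 higher. Beside MUC5AC, MUC17 and PSCA, the lower ones included AGR3, a disulfide isomerase of secretory cells, at 1728 and 1662 in CD133+ and 3433 and 3361 in CD133- cells (lower by 2-fold, SE 0.06 on the log2 scale, adjusted p = 5.52e-05). TFF1 was at 7941 and 8111 against 14781 and 15243 (-0.90, adjusted p = 0.000117). The summed intensity of all 25 list members, clear or not, was 49884 and 50670 on the CD133+ arrays and 74528 and 75261 on the CD133- arrays. The membrane mucin MUC1 did not pass the test, at 8654 and 8422 against 8614 and 9159. MUC2, the intestinal gel-forming mucin, was not clear.

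Of 24 clear gut lineage and enterocyte genes, 6 (25%) were lower and 1 higher in CD133+ cells, with a median of -0.12. The shares over all clear genes were 11.8% lower and 13.1% higher. CDH17, the intestinal cadherin, was at 3068 and 2819 in CD133+ and at 6485 and 6128 in CD133- cells. It was 2.14-fold lower, without overlap (log2 change -1.10, SE 0.09, adjusted p = 0.000225). CEACAM5, the carcinoembryonic antigen, was at 1147 and 997 against 2469 and 1991 (-1.05, adjusted p = 0.000413), and VIL1, the actin-binding villin of microvilli, at 660 and 607 against 940 and 960 (-0.59, adjusted p = 0.00165). REG4, a secreted lectin of the gut and here named after its values were seen, was at 11665 and 12075 against 16587 and 15950 (-0.45, adjusted p = 0.00156). Of the 16 gastric epithelial markers 6 were lower and 0 higher (7 and 0 at an unadjusted p under 0.05). The 6 include MUC5AC, TFF1 and VIL1, which were already counted in the lists above, so this is not a separate group. The 10 markers that were not called included KRT8, KRT18, KRT19 and TACSTD1, with log2 changes of 0.02, 0.01, 0.02 and -0.01.

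Of 34 clear genes of epithelial junctions, 13 (38.2%) were lower and 3 (8.82%) higher, with a median of -0.18. All clear genes were lower in 11.8% and higher in 13.1% of cases. PVRL4 (NECTIN4), a nectin of adherens junctions, was at 128 and 83.0 in CD133+ and 212 and 234 in CD133- cells (log2 change -1.11, SE 0.19, adjusted p = 0.0047). TJP1, the scaffold ZO-1, was at 2626 and 3264 against 4500 and 4380, lower by 0.60 on the log2 scale without overlap (log2 change -0.60, adjusted p = 0.00412). The 3 higher ones were all claudins: CLDN23 (0.26), CLDN2 (0.53) and CLDN3 (0.60). The call of CLDN2 was lost without CD133+ replicate 2 (0.50, adjusted p = 0.0563) or CD133- replicate 2 (0.45, 0.0632), that of CLDN23 without CD133+ replicate 2 (0.21, 0.0522) or CD133- replicate 2 (0.23, 0.0537), and that of CLDN3 without CD133+ replicate 2 (0.51, 0.064) or CD133- replicate 1 (0.44, 0.0518). Only 5 of 24 mesenchymal and EMT genes were clear, and 1 of these was higher, the receptor kinase AXL (3211 and 3249 against 2103 and 2466, log2 change 0.50, adjusted p = 0.00515). Of 13 clear keratins, 4 were higher and 1 lower (median 0.02). KRT86, a hair keratin, was at 414 and 383 against 148 and 166 (1.35, adjusted p = 0.000117), and KRT23 was higher by 1.13. KRT86 has near-identical paralogs, as do the metallothioneins, histones, HLA genes and AKR1B10 with AKR1B15, so their probes may share signal.

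**Figure D4:**
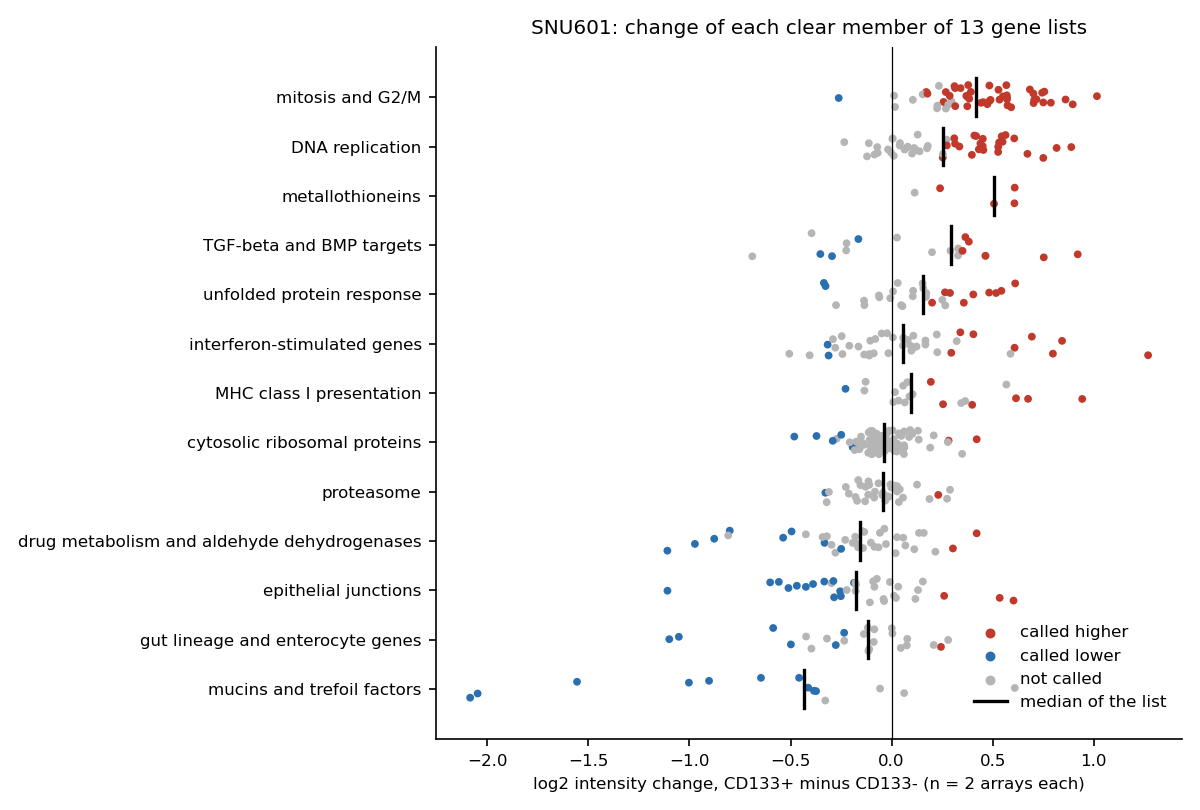
Log2 change (CD133+ minus CD133-, 2 arrays each) of every clear member of 13 gene lists in SNU601, with called members in red (higher) or blue (lower), others in grey, and the median of each list as a black bar. The mitosis list has a median of 0.42, with 42 of 54 members called higher and 1 lower, the mucins and trefoil factors spread from -2.08 to 0.61, and the ribosomal proteins have a median of -0.04 and a range of -0.48 to 0.42.

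Lists of immune genes were counted beside the 13.1% higher and 11.8% lower of all clear genes. Of 20 clear genes in the list of MHC class I presentation, 6 (30%) were higher and 1 (5%) lower (median 0.10). The 3 with the largest changes belong to class II presentation: CD74, the invariant chain, HLA-DRA, an antigen-presenting chain, and HLA-DMA, which helps to load peptides. CD74 was at 225 and 236 in CD133+ and at 116 and 124 in CD133- cells (log2 change 0.94, SE 0.08, adjusted p = 0.000337). HLA-DMA was at 3446 and 3458 against 2257 and 2249, a difference of 0.62 with nearly no spread between arrays (adjusted p = 0.000131), and HLA-DRA was higher by 0.68 (adjusted p = 0.00177). Of 43 clear interferon-stimulated genes, 8 (18.6%) were higher and 2 (4.65%) lower, with a median of 0.06. IFI44L was at 740 and 847 against 331 and 326, without overlap (log2 change 1.27, SE 0.12, adjusted p = 0.000362). EPSTI1 (0.84), IFI6 (0.80) and the guanylate-binding protein GBP1 (0.69) were higher too, while 33 of the 43, ISG15 among them (0.09, adjusted p = 0.224), were not called. Of 21 clear chemokines and NF-kB targets, 5 (23.8%) were higher and 2 (9.52%) lower. Beside CXCL1, the chemokine IL8 (CXCL8) was at 5590 and 6355 against 3439 and 3713 (0.74, adjusted p = 0.00147). The antioxidant enzyme SOD2 (-0.44) and the iron-binding LCN2 (-0.43) were lower.

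Several chaperones of the endoplasmic reticulum were higher in CD133+ cells. In the list of the unfolded protein response 9 of 29 clear genes (31.0%) were higher and 2 (6.9%) lower, with a median of 0.15. Over all clear genes these shares were 13.1% and 11.8%. PDIA6, a disulfide isomerase, was at 4394 and 4458 in CD133+ and 2900 and 2894 in CD133- cells (log2 change 0.61, SE 0.05, adjusted p = 0.000225). The related PDIA4 (0.54), the cochaperone SDF2L1 (0.52) and ARMET (MANF, 0.48) had like changes. HERPUD1 (-0.34) and EDEM1 (-0.33), which act in the disposal of misfolded proteins, were lower. Of 30 clear genes of the integrated stress response 2 were higher and 5 lower (median -0.07), among them DDIT3 (CHOP), at 798 and 787 against 1119 and 1306 (-0.61, adjusted p = 0.00183).

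The large housekeeping groups differed little. Of 80 clear cytosolic ribosomal protein genes, 2 were higher and 6 lower, with a median of -0.04. The corresponding counts were 4 and 9 of 72 for nuclear-encoded oxidative phosphorylation genes (median -0.03), 1 and 1 of 37 for proteasome subunits (median -0.04), 0 and 2 of 23 for heat shock proteins (median -0.11) and 4 and 5 of 40 for lysosomal genes (median -0.02). These shares are close to or below the 13.1% and 11.8% of all clear genes. Of 23 heat shock genes, 1 had a positive change at an unadjusted p under 0.05. Ribosome biogenesis genes were lower in 10 of 42 cases (23.8%) and higher in 5 (median -0.12). TSR1, a factor for maturation of the small subunit, was at 872 and 817 in CD133+ and 1138 and 1193 in CD133- cells (log2 change -0.47, adjusted p = 0.00252), while NIP7, of the large subunit, was higher by 0.44.

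Metabolic lists were mixed. Of 22 clear glycolysis genes 5 (22.7%) were higher and 3 (13.6%) lower (median -0.03), beside 13.1% and 11.8% of all clear genes. Beside SLC2A3, the higher ones were the regulatory kinases PFKFB4 (0.61) and PFKFB3 (0.47) and the hexokinase HK1 (0.38), and PKM2 (PKM), pyruvate kinase, was lower, at 5015 and 5081 against 7154 and 7223 (-0.51, adjusted p = 0.000181). Hypoxia targets were called 3 and 3 times in 18, with a median of -0.05. Cholesterol synthesis had 3 higher of 23 and 0 lower (median 0.04), with 4 negative changes at an unadjusted p under 0.05. Fatty acid synthesis had 1 higher and 2 lower of 11 (median 0.00), and fatty acid oxidation 5 and 4 of 26 (median 0.05). The fatty acid carrier FABP5 was at 1032 and 1034 in CD133+ and 1851 and 1861 in CD133- cells (log2 change -0.85, SE 0.09, adjusted p = 0.000599). PNPLA2, the lipase that starts the breakdown of stored fat, was at 1797 and 1782 against 3301 and 3476 (-0.92, adjusted p = 0.000337).

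In the list of drug metabolism and aldehyde dehydrogenases 8 of 38 clear genes (21.1%, beside 11.8% of all clear genes) were lower and 2 higher (5.26%, beside 13.1%), with a median of -0.15. ALDH1A1, the aldehyde dehydrogenase that is often used as a stem cell marker, was at 1036 and 959 in CD133+ and at 1936 and 1977 in CD133- cells. It was 1.96-fold lower in CD133+ cells, with no overlap (log2 change -0.97, SE 0.07, adjusted p = 0.000181). The sulfotransferase SULT1C2 was at 445 and 476 against 984 and 1002 (-1.11, adjusted p = 0.000419), and the cytochrome P450 CYP4F12 was lower by 0.80 (log2 change -0.80). Of 25 clear NRF2 targets 2 were higher and 4 lower (median -0.10), with AKR1B10, an aldo-keto reductase, at 6166 and 5964 against 10960 and 11280 (-0.87, adjusted p = 5.25e-05). Metallothioneins, which bind zinc and copper, went the other way: 4 of 5 clear members were higher and 0 lower, also at an unadjusted p under 0.05 (median 0.51). MT2A was at 1800 and 1735 in CD133+ and at 1209 and 1112 in CD133- cells (log2 change 0.61, SE 0.06, adjusted p = 0.000695).

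Signalling lists were read against the same shares of all clear genes, 13.1% higher and 11.8% lower. Of 19 clear TGF-beta and BMP targets 6 (31.6%) were higher and 3 (15.8%) lower, with a median of 0.29. PMEPA1, a membrane inhibitor of SMAD signalling, was at 2836 and 2880 in CD133+ and 1439 and 1583 in CD133- cells, without overlap (log2 change 0.92, SE 0.05, adjusted p = 5.5e-05). The inhibitory SMAD6 was higher by 0.75 and the ligand BMP4 by 0.46, while the receptor TGFBR2 was lower (log2 change -0.29). Of 13 clear YAP/TEAD targets 5 (38.5%) were higher and 1 (7.69%) lower, with a median of 0.05 that became -0.05 without CD133- replicate 2. They were led by CTGF (CCN2), a matricellular protein, at 1859 and 2049 against 878 and 900 (1.13, SE 0.13, adjusted p = 0.000866). CRIM1, also among the higher ones, was clear only in CD133+ cells, at 127 and 136 against 87.7 and 73.7. Of 18 clear Wnt targets 5 (27.8%) were higher and 1 (5.56%) lower (median 0.07). TNFRSF19 (TROY) was at 1482 and 1398 against 782 and 816 (0.85, adjusted p = 0.00124, but 0.0677 with a floor of 16), and the secreted Wnt inhibitor DKK1 was higher by 0.44, while RNF43, a ubiquitin ligase that removes Wnt receptors, was lower, at 425 and 388 against 660 and 653 (-0.69, adjusted p = 0.000794). The Notch list had 4 higher (28.6%) and 2 lower (14.3%) of 14 (median 0.15), with the transcriptional repressors HES6 (0.43) and HES1 (0.40) higher and the ligand JAG1 (-0.32) and the Notch inhibitor NUMB (-0.27) lower.

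ERK feedback genes (4 higher and 1 lower of 21, median 0.00), immediate early genes (4 and 3 of 26, median 0.00) and receptor tyrosine kinases with their ligands (2 and 4 of 23, median 0.00) had medians near that of all genes. The ERK phosphatases DUSP4 and DUSP6 were higher by 0.64 and 0.49, and the ephrin EFNB1 was lower, at 862 and 828 in CD133+ against 1454 and 1188 in CD133- cells (-0.64, adjusted p = 0.00266). Apoptosis regulators had 5 higher (18.5%) and 2 lower (7.41%) of 27 (median 0.09), beside 13.1% and 11.8% of all clear genes. They were led by BIRC5 (survivin, 0.70), which also belongs to the mitosis list. Targets of p53 had 2 higher and 3 lower of 20 (median 0.05). GDF15, a stress-induced secreted factor, was at 4888 and 4990 against 7352 and 7335 (-0.57, adjusted p = 0.000513). Of 18 clear stem cell markers other than PROM1, 4 (22.2%) were higher and 2 (11.1%) lower (median 0.09). The gut stem cell marker LGR5 was at 198 and 193 in CD133+ and at 121 and 121 in CD133- cells (log2 change 0.70, adjusted p = 0.00287, but 0.151 with a floor of 16). The chemokine receptor CXCR4 was clear only in CD133+ cells, at 146 and 165 against 90.4 and 94.4 (log2 change 0.75). It thus entered the count through the fraction where it is higher. ALDH1A1 and PROM2 were the lower ones, and neither CD44 (983 and 1122 against 961 and 989) nor SOX2 (254 and 223 against 272 and 209) passed the test.

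The actin cytoskeleton list had 10 higher (18.2%) and 7 lower (12.7%) of 55 (median -0.02), beside 13.1% and 11.8% of all clear genes. Beside LCP1, the bundling protein FSCN1 (fascin) was at 1289 and 1148 in CD133+ and 549 and 670 in CD133- cells (log2 change 1.01, SE 0.10, adjusted p = 0.000499). The tropomyosin TPM2 was at 911 and 908 against 492 and 441 (0.96, adjusted p = 0.000441), and the myosin light chain MYL9 was higher by 0.74. The epithelial myosins MYO5B, at 64.7 and 87.2 against 187 and 145 (-1.14, clear only in CD133- cells), and MYH14 (-0.67) were lower. Of 18 clear S100 proteins and annexins 0 were higher and 2 lower (median -0.05), ANXA13 and ANXA9, and 1 had a positive change at an unadjusted p under 0.05. The call of ANXA9 (-0.49, adjusted p = 0.0274) was lost without CD133+ replicate 2 (-0.38, adjusted p = 0.108) or CD133- replicate 1 (-0.46, adjusted p = 0.0871) or CD133- replicate 2 (-0.51, adjusted p = 0.0639).

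To ask what differed between SNU601 and the other lines, the change in SNU601 was set against the mean of the changes in KATO-III and SNU216 in the same fit. The difference was called for 4985 clear genes, 2606 (22.3%) with a higher and 2379 (20.3%) with a lower change in SNU601. Of the 1536 genes higher in CD133+ cells of SNU601, 31.8% were also higher in KATO-III and 15.3% in SNU216, while 33.4% and 36.3% were lower there. Over all these clear genes, 24.2% were higher and 29.4% lower in KATO-III, and 20.6% and 19.9% in SNU216. Of the 1381 lower genes, 41.8% were lower and 20.3% higher in KATO-III, and 13.7% and 35.4% in SNU216.

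Counts of called differences in lists stand beside 22.3% higher and 20.3% lower of all clear genes. Mitosis genes had a median of 0.42 in SNU601, 0.49 in KATO-III and 0.18 in SNU216. Their difference was called higher for 15 and lower for 9 of 54. Mucins and trefoil factors had medians of -0.44, -0.27 and 0.00, with 3 and 6 of 14 called. The list of MHC class I presentation had medians of 0.10, 0.09 and -0.50, and 13 of its 20 members had a higher and 1 a lower change in SNU601. Histone genes had medians of 0.01, -0.51 and -0.47, and 14 of 28 had a higher and 0 a lower change (0 lower at an unadjusted p under 0.05). Interferon-stimulated genes (16 and 2 of 43), genes of the unfolded protein response (10 and 0 of 29, with 0 lower at an unadjusted p under 0.05) and immediate early genes (11 and 2 of 26) also had more members with a higher change in SNU601.

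Single genes ran in opposite directions between the lines. NNMT changed by 2.60 in SNU601, 0.26 in KATO-III, where it was above the floor on 1 array, and -1.69 in SNU216, a difference of 3.32 (adjusted p = 0.00056). ALDH1A1 changed by -0.97 in SNU601 and -1.17 in KATO-III, but by 3.09 in SNU216 (difference -1.93, adjusted p = 1.32e-05). SLC9A2, a sodium-proton exchanger, was lower in CD133+ cells of SNU601 (2232 and 2241 against 3598 and 3602, log2 change -0.69) and changed by 3.17 in SNU216 (difference -2.33, adjusted p = 5.95e-06). MMP7 was higher in SNU601 (1.89) and changed by -1.18 in KATO-III, and lay at or below the floor on all arrays of SNU216 (difference 2.48, adjusted p = 2.09e-05). SPRR3 and VTN were at or below the floor on all arrays of both other lines, so their differences are those of SNU601 alone. For PROM1 the changes were 1.86, 1.10 and 2.02 (difference 0.29, adjusted p = 0.0148).

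**Figure D5:**
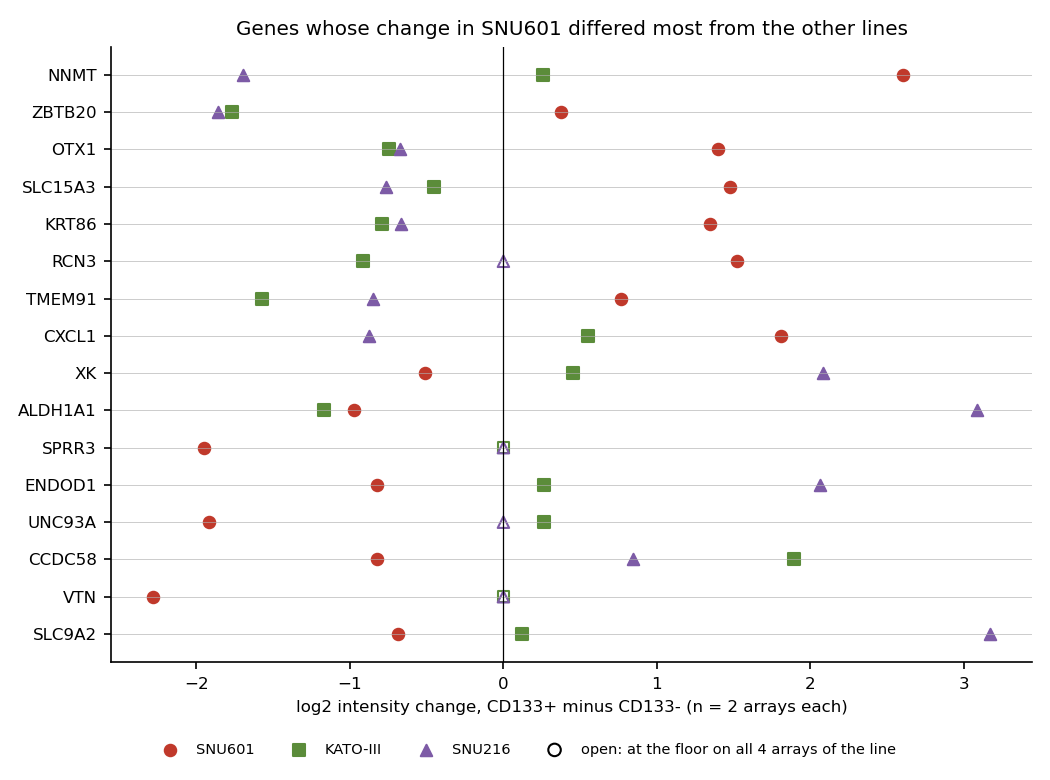
Log2 change (CD133+ minus CD133-, 2 arrays each) in SNU601 (circles), KATO-III (squares) and SNU216 (triangles) for the 16 genes, 8 in each direction, that the naming rule chose by their difference between SNU601 and the mean of the other lines, which leaves out MMP7 for its symbol; open symbols mark lines where the gene was at or below the floor on all 4 arrays. Among the genes plotted, NNMT has the largest positive difference (3.32) and SLC9A2 the largest negative one (-2.33).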

How the data were processed

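Total RNA of the sorted cells was measured on 12 Illumina HT-12 v3 arrays, of which 4 (2 per fraction) are from SNU601. The authors deposited quantile-normalized intensities, 1 row per gene symbol, and BeadStudio is named in the submitters' processing notes. The scale was linear, with a background subtracted (32.1% of all values were at or below 0), and how the background was estimated and probes were combined is not given in the sources used here. Log2 cannot be taken of values at or below 0. A floor of 32.7 therefore replaced every value under it before taking log2. It is equal in size to the lowest 1% point of the deposited table. The plan had foreseen log2 values, and a floor in case of a linear scale. Genes above the floor on at least 2 of the 12 arrays were tested (20147 of 34595 with a value).

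Limma 3.58.1 in R 4.3.3 fitted a mean for each of the 6 sorted populations, with a mean-variance trend, 6 residual degrees of freedom shared over the lines and Benjamini-Hochberg adjustment over all tested genes at 0.05. On data simulated from these arrays with 11674 genes, the fit recovered 48% of 200 changes of 0.5 and 84.5% of 200 changes of 1 on the log2 scale, with 3 and 7 false calls. Those shares hold for 11674 genes with 200 changes of each size. The main fit tested 20147 genes and called 2917 clear ones in SNU601. Recovery over all tested genes, or with as many changes as were called, was not tested. The number of arrays limits the precision. Counts over lists, promoter searches and figures were made in Python 3.11.15 with pandas 2.3.3.

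The members, the 43 gene lists and the rules were chosen with earlier results of these data known, so list counts are descriptions. Lists share some genes, so their counts are not independent. The counts include members clear in 1 fraction only, among them CXCR4, CRIM1, PECI (ECI2) and KLF10. Such members passed the intensity limit only through the fraction where they are higher. Genes were named by rule: among called clear genes whose fractions do not overlap, and without placeholder symbols (among which symbols ending in P and digits were counted), the 20 with the largest change in each direction, PROM1, up to 4 called members of each list in each direction, and the 8 in each direction with the largest difference from the other lines. PLK1 and KIF18A were named for their promoters. MMP7 and REG4, and list members that were not called, were named after their values were seen. LCP1 entered through the actin list. Other floors, an offset, filters, normalizations, variance models, a replicate block and left-out arrays were tried as alternatives. Symbols are those of the files, with the current one in parentheses where it differs.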

Additional observations from a re-analysis of the deposited data

Results flagged for a closer look

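The change between fractions in SNU601 differed from the mean change in KATO-III and SNU216 for 4985 clear genes, by a limma contrast of the difference itself. The genes named for this difference are given with its size on the log2 scale and no explanation. For NNMT it was 3.32 (adjusted p = 0.00056), for ZBTB20, a zinc finger repressor, 2.19, and for OTX1 2.11. ZBTB20 was higher by only 0.38 in SNU601 (234 and 244 in CD133+ against 192 and 176 in CD133- cells), a call lost without CD133+ replicate 1, CD133+ replicate 2, CD133- replicate 1 or CD133- replicate 2 (0.41, 0.35, 0.44, 0.31, with adjusted p of 0.09, 0.135, 0.0605, 0.16). Its changes in KATO-III and SNU216 were -1.77 and -1.86. For SLC15A3, a transporter of peptides and histidine, the difference was 2.08, for KRT86 it was also 2.08, and for RCN3, a calcium-binding protein of the secretory pathway, 1.98. TMEM91 had a difference of 1.98 and CXCL1 of 1.97, the latter with an adjusted p of 0.0192 and a wide spread between its CD133- arrays.

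The difference was negative for SLC9A2 (-2.33), VTN (-2.28), CCDC58 (MIX23, -2.19) and UNC93A (-2.05). UNC93A was clear only in CD133- cells of SNU601, at 43.4 and 39.4 in CD133+ against 169 and 144 in CD133- cells. CCDC58 was at 443 and 490 in CD133+ and at 848 and 802 in CD133- cells of SNU601, and its changes in KATO-III and SNU216 were 1.89 and 0.85. It was negative too for ENDOD1 (-1.99), SPRR3 (-1.95), ALDH1A1 (-1.93) and XK (-1.78), a membrane protein of the Kell blood group complex. For VTN and SPRR3 both other lines were at or below the floor, for RCN3 and UNC93A this held in SNU216, and there the change is 0 by construction.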

How the results depend on the processing

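PROM1 stayed higher in CD133+ cells and below the threshold in all 15 alternative settings (log2 change 1.78 to 1.89). With each SNU601 array left out in turn, 984 to 1019 genes were higher and 823 to 898 lower, against 1536 and 1381 with all arrays, and the 4 arrays gave like counts (without CD133+ replicate 1: 1001 and 837; without CD133+ replicate 2: 984 and 898; without CD133- replicate 1: 1012 and 839; without CD133- replicate 2: 1019 and 823). Fewer arrays leave fewer degrees of freedom. A signal-to-noise ratio past 1 or -1 on linear intensities, which carries no test, was passed by 3193 higher and 3394 lower genes, and an added limit of 1 on the log2 change by 79 and 64. Same-numbered deviations correlated at 0.0261 (KATO-III), 0.0129 (SNU216) and -0.00648 (SNU601), which cannot show whether same-numbered arrays share a sort or culture. With the number as a replicate block 1131 genes were higher and 1001 lower, and 4378 differed between SNU601 and the other lines. PROM1 then had an adjusted p of 0.00448 by limma, and 49 named genes were not called. Centring each array on its median gave 1788 and 1139. The count of genes that differed from the other lines was 4032 to 4078 without 1 array, against 4985. Of 246 named genes, 156 were called in every setting and 90 were lost in at least 1, without any reversal. Losses given beside single genes are mostly those without 1 array, and other settings lost some of the same calls. By limma, ANXA9 was also lost with a floor of 16 (adjusted p = 0.345) and CXCL1 without the filter on low values (0.086). CLDN3 was also lost in the fit on the 4 SNU601 arrays alone (adjusted p = 0.0537). The medians of 11 lists changed sign in some setting, all of them at most 0.0534 in size. Dim genes are limited by the floor: a gene at the floor in a fraction has only a bound there.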

Other observations

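The cell division genes of SNU601 did not all follow the median of their list. MKI67, the marker Ki-67, was at 124 and 129 in CD133+ and at 124 and 126 in CD133- cells (log2 change 0.01). FOXM1, a transcription factor of mitotic genes, was at 751 and 585 against 641 and 669, and the replication clamp PCNA at 538 and 424 against 525 and 431. In these 3 genes the fractions overlapped and the test was not passed, and the arrays of PCNA within a fraction lay further apart than the means of the fractions. AURKB, the kinase of the chromosomal passenger complex, was at 6199 and 5737 against 4925 and 5219 (0.23, adjusted p = 0.105), while its partners in that complex, INCENP (0.79) and BIRC5 (0.70), were called higher. These genes were named after their values were seen.

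Some genes stand in the files under more than 1 name. The kinetochore gene NUF2 has a row as CDCA1 and a row as NUF2. The CDCA1 row was clear only in CD133+ cells, at 168 and 172 against 61.6 and 58.2 (log2 change 1.51). The NUF2 row had values of 22.0 and 38.8 against 11.6 and 22.0 (0.12, adjusted p = 0.814). The signal of that gene rests on which row is read. EPR1 is the name given to transcripts from the strand opposite to BIRC5. It was clear only in CD133- cells (47.2 and 59.2 in CD133+ against 174 and 200, log2 change -1.82). BIRC5 itself was at 2183 and 2377 against 1345 and 1457. Whether the rows of EPR1 and BIRC5 share signal was not tested.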
